A study of Mus musculus with 36 samples.

Results

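The genes described here are 10 regulators of cell death of the BCL2 family, Bax, Bak1, Bcl2, Bcl2l1, Mcl1, Bcl2l11, Bbc3, Hrk, Pmaip1 and Bid, chosen by gene symbol from the 55487 genes of the count matrix. They were followed across 36 bulk RNA-seq libraries of the mouse visual pathway. The libraries cover the retina, the unmyelinated optic nerve head (UON) and the myelinated optic nerve (MON), with 12 libraries a tissue. All mice were C57BL/6, a common inbred strain, aged 2 to 4 months, and none carried a transgene or an engineered allele. Each tissue had 6 groups. The naïve group came from mice with no injury to either eye. The crush groups were taken 3 D and 2 W after the optic nerve was pinched with forceps. The glaucoma groups were taken 3 D, 2 W and 6 W after microbeads were injected into the anterior chamber of 1 eye to raise intraocular pressure. Each group held 1 female pool and 1 male pool, each of RNA from 2 mice, so the pools of a group also differ in sex. Retina, UON and MON of a pool came from the same mice.

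BCL2 family proteins decide whether the outer mitochondrial membrane is opened, the step that releases cytochrome c and commits a cell to apoptosis. Bax and Bak1 are the effectors that form the pores. Bcl2, Bcl2l1 (BCL-XL) and Mcl1 hold them in check. The BH3-only proteins Bcl2l11 (BIM), Bbc3 (PUMA), Hrk (DP5), Pmaip1 (NOXA) and Bid act upstream, by binding the protective members or by activating the effectors. In retinal ganglion cells (RGCs), the neurons whose axons form the optic nerve, Bax is known to be required for soma death after axonal injury.

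The depth and the labels were checked first. Library totals were 19931516 to 55990831 estimated counts in retina, 16158723 to 58461609 in UON and 16326906 to 78054205 in MON, and the naïve MON pools differed most, with 78054205 in the female pool and 17757595 in the male pool. All 10 members passed the filter on low counts in every fit. In the 36 libraries, all 36 matched the labelled sex. Photoreceptor markers summed to 65274 to 79728 CPM (counts scaled to the library total) in retina. In MON the 11 oligodendrocyte and myelin markers summed to 144999 and 115177 CPM in the naïve pools, against 27004 and 20447 CPM in UON. None of them was at 0 in both pools of a group. The 8 RGC markers summed to 563 and 494 CPM in naïve retina, to 316 and 275 CPM 3 D after crush and to 116 and 118 CPM 2 W after crush. None was at 0 in both pools of a group. Of these markers Sncg fell by 3.25 on the log2 scale (SE 0.13, adjusted p = 0.00156, edgeR quasi-likelihood test with Benjamini-Hochberg adjustment) by 2 W, and Rbpms, Rbpms2, Tubb3 and Pou4f1 fell as well. In bulk tissue, fewer cells of a type and less RNA per cell cannot be told apart.

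The genomic positions are those of GRCm38. Bax lies at chr7:45461697-45466898 and Bak1 at chr17:27019810-27029009. Bcl2 lies at chr1:106538178-106714274, Bcl2l1 at chr2:152780668-152831728 and Mcl1 at chr3:95658788-95663176. The BH3-only genes Bcl2l11 (chr2:128126038-128162547), Bbc3 (chr7:16308393-16318205), Hrk (chr5:118164648-118189478) and Bid (chr6:120891930-120916853) are on separate loci. The position of Pmaip1 is not given here. Bax overlaps Gm45808 on the same strand, Bak1 overlaps Ggnbp1 and Bid overlaps the end of Bcl2l13 on the opposite strand, and antisense transcripts overlap Bcl2. Whether the counting used strand is not given in the sources used here, so reads of these overlaps may be split between genes.

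Promoter sequences are shown for the genes on which the results below turn: Bcl2l1 and Bcl2, which differed between regions, Hrk, which had the largest retinal difference with a small error, and the effector Bax. They run from 250 bases before to 50 bases after a RefSeq start site (GRCm38.p6), 5′ to 3′ on the gene's strand. For Bcl2l1 both of the first starts are shown, since the deposited transcripts Bcl2l1-201 (start at position 152831728) and Bcl2l1-202 (start at position 152830666) begin beside them. Capitals mark every match, on either strand, to the AP-1 site TGANTCA, the ATF/CRE site TGACGTCA, the GC box GGGCGG, the box CCAAT, the TATA box with the letters TATAAA, or the p53 motif. Matches may overlap, and each was counted. The p53 motif is only a part of a p53 binding site, and the full site was not searched for.
Bcl2l1, first start, chr2:152831679-152831978, minus strand: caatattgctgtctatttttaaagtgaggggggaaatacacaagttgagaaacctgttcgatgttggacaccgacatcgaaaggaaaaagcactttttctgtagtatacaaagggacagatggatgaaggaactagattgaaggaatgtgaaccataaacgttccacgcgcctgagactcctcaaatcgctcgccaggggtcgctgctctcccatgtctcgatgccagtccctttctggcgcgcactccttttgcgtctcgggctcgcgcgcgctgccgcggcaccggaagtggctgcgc
Bcl2l1, second start, chr2:152830668-152830967, minus strand: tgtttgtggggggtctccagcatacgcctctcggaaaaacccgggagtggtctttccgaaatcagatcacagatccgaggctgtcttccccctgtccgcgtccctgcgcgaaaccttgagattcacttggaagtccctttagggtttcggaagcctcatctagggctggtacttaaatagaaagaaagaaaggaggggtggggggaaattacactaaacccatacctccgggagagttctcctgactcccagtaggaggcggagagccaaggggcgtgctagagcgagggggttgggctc
Bcl2, chr1:106714241-106714540, minus strand: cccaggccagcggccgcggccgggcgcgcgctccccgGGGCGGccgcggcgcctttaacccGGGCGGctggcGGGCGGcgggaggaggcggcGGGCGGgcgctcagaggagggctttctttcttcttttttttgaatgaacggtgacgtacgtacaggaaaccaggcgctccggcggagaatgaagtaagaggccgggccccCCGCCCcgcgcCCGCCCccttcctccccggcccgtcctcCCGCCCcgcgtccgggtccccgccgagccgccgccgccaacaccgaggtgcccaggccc
Hrk, chr5:118169514-118169813, plus strand: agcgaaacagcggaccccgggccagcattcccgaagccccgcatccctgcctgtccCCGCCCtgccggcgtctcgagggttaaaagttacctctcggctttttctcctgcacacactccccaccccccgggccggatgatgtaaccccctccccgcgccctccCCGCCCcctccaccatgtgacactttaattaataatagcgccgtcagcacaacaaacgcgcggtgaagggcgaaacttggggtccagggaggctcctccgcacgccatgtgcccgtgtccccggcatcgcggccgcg
Bax, chr7:45466849-45467148, minus strand: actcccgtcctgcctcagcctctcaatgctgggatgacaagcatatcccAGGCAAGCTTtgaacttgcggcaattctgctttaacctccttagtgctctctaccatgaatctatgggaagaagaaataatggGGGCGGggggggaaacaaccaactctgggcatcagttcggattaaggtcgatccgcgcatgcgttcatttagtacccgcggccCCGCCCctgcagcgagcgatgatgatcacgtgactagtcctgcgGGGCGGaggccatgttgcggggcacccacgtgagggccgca
Neither Bcl2l1 window held any of the searched letters. The Bcl2 window held 7 GC boxes, the Hrk window 2 and the Bax window 3. In all, 14 promoter entries of 9 of the 10 members were searched, and Pmaip1 was not searched. Of these entries 10 held a GC box, 3 a CCAAT box and 1, that of Bax, the partial p53 motif. By comparison, a GC box was found in 35.7%, a CCAAT box in 37.4% and a p53 motif in 8.36% of the 32851 promoters in the table. None of the 14 entries searched held an AP-1 site (7.81% of all promoters), an ATF/CRE site (1.79%) or a TATA box (13.6%).

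In naïve retina the effector Bax had the highest level of the 10 genes, at 46.6 and 43.0 FPKM (fragments scaled to gene length and library size) in the female and male pools. Bcl2l1 followed, but its pools were far apart at 31.4 and 8.80 FPKM. Mcl1 (6.90 and 7.75 FPKM) and Bcl2 (4.67 and 4.00 FPKM) came next. Bcl2l11 was at 3.88 and 1.20 FPKM, below both Bcl2 pools. Bid (1.56 and 1.41 FPKM) overlapped Bcl2l11, and Bbc3 (2.02 and 0.864 FPKM) overlapped Bid. Hrk (0.209 and 0.356 FPKM) and Pmaip1 (0.176 and 0.274 FPKM) overlapped as well, and Bak1 was lowest at 0.168 and 0 FPKM.

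**Figure D1:**
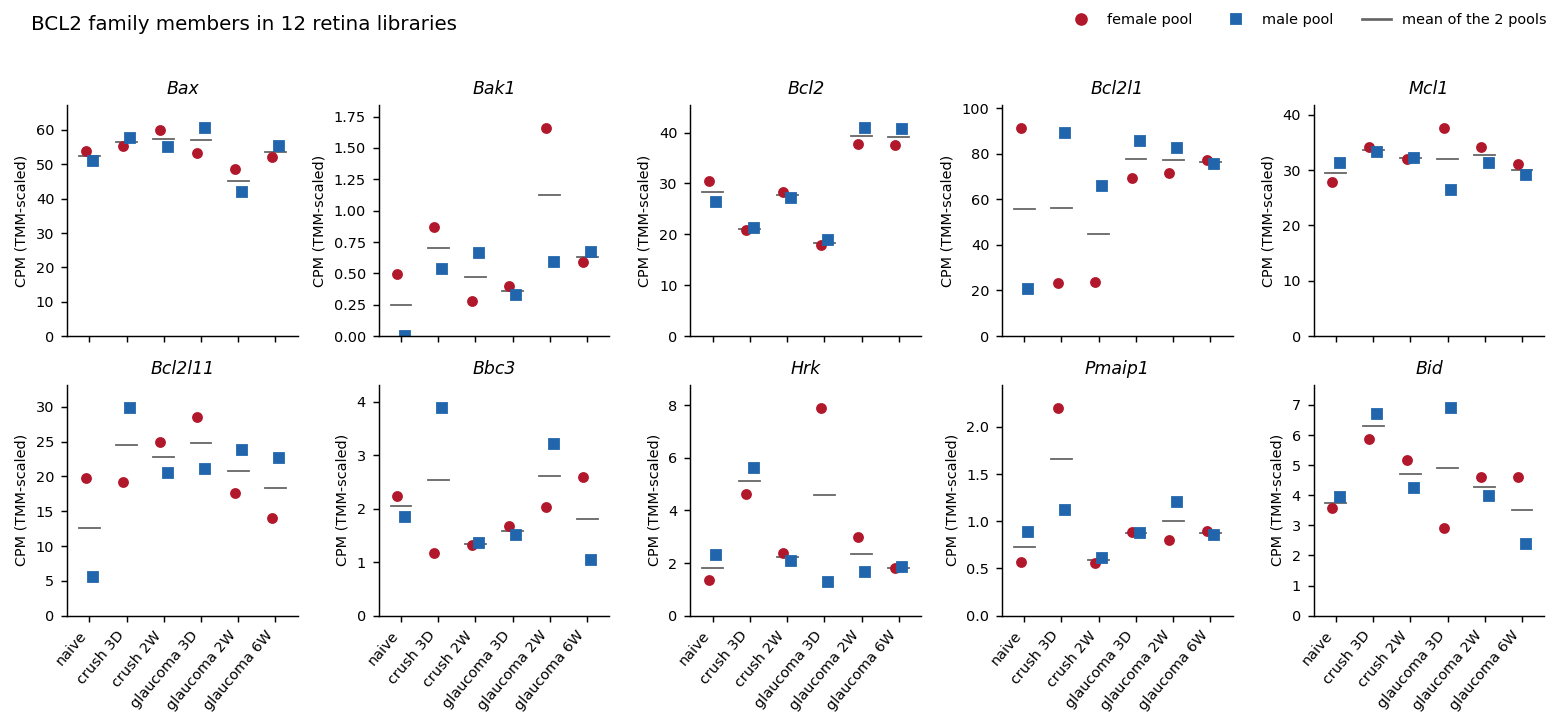
Level of each member in the 12 retina libraries, in TMM-scaled CPM on linear axes that start at 0, with circles for female pools, squares for male pools and a bar at the mean of both. Hrk was 4.62 and 5.61 CPM at 3 D after crush against 1.35 and 2.29 CPM in naïve retina, and Bcl2 was lowest at 3 D of both models.

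The first comparison asks how the members respond in the retina to crush of its axons. No member passed the call limits (adjusted p below 0.05 and an absolute log2FC above 1) at 3 D or 2 W, where edgeR called 0.0221% and 0.313% of all genes. At an unadjusted p below 0.05 there were 3 members at 3 D (Hrk, Bcl2 and Bid) and 0 at 2 W, beside 1437 and 2037 of 22671 genes. DESeq2 also called 0 members at both times, beside 136 of 20956 and 349 of 22471 genes. At 3 D both injured pools stood above both naïve pools for 6 members, Bak1, Bax, Bid, Hrk, Mcl1 and Pmaip1, where 19.3% of genes did so, and below them for 1, Bcl2, where 18.6% did so. The median log2FC of the 10 members was 0.47, beside 0.0077 over all genes tested. At 2 W both pools were above naïve for 4 members, Bax, Bcl2l11, Bid and Mcl1, beside 21% of genes, and below for Bbc3, beside 19.4% of genes. For Bbc3 this held only in CPM, since its 1.24 and 1.37 FPKM lay between the naïve 2.02 and 0.864 FPKM.

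Hrk, a BH3-only gene known from neurons deprived of trophic support, gave the largest of the retinal differences that had a p below 0.05. Its level was 1.35 CPM in the naïve female pool and 2.29 CPM in the naïve male pool, and 4.62 and 5.61 CPM at 3 D after crush. The groups did not overlap, and the log2FC was 1.52 (SE 0.38, adjusted p = 0.535). At 2 W Hrk stood at 2.39 and 2.08 CPM, so that the female pool was above and the male pool within the naïve range. The difference between 2 W and 3 D was -1.18 (SE 0.38, adjusted p = 0.656), in a contrast that called 0.0485% of genes. All estimated counts of Hrk in retina were on its coding transcript Hrk-201, whose start lies in the promoter window shown above.

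The other BH3-only genes moved less or varied more between pools. Bid, which links caspase-8 to mitochondria, was at 3.56 and 3.94 CPM in naïve retina and at 5.86 and 6.71 CPM at 3 D (log2FC 0.74, SE 0.30, adjusted p = 0.781). Pmaip1 was at 0.567 and 0.883 CPM in naïve retina and at 2.203 and 1.12 CPM at 3 D (log2FC 1.17, SE 0.66, adjusted p = 0.849). Both of these were above the naïve pools at 3 D, and Pmaip1 was back at 0.561 and 0.609 CPM at 2 W. Bcl2l11 ranged from 5.52 to 19.7 CPM between the naïve pools alone, against 19.1 and 29.9 CPM at 3 D. Bbc3 was 1.18 and 3.89 CPM at 3 D, on either side of the naïve values of 2.24 and 1.85 CPM.

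The effector Bax stayed within a narrow range. It was at 53.9 and 51.0 CPM in naïve retina, at 55.4 and 57.6 CPM at 3 D and at 60.0 and 55.0 CPM at 2 W, with a log2FC of 0.11 (SE 0.12) at 3 D and 0.12 (SE 0.12) at 2 W. Over all 12 retina libraries it ran from 42.0 to 60.6 CPM. Bak1 was close to the detection limit, at 0.496 and 0 CPM in naïve retina and at 0.869 and 0.533 CPM at 3 D, and its log2FC of 1.82 had an SE of 1.61.

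Of the protective members, Bcl2 was at 30.5 and 26.3 CPM in naïve retina, at 20.8 and 21.3 CPM 3 D after crush and at 28.3 and 27.1 CPM at 2 W. The 3 D pools lay below both naïve pools (log2FC -0.43, SE 0.16, adjusted p = 0.773), and the 2 W pools lay within the naïve range. Mcl1 was steadier, at 27.8 and 31.2 CPM in naïve retina, 34.1 and 33.3 CPM at 3 D and 32.0 and 32.2 CPM at 2 W. Bcl2l1 gave no usable comparison in crushed retina, because its naïve pools stood at 91.2 CPM (female) and 20.5 CPM (male). Its crush pools stood at 23.5 and 89.0 CPM at 3 D and at 23.6 and 65.9 CPM at 2 W. Where a library is left out its group holds 1 library, the spread comes from the other groups, and the lone library is assumed to vary like them. Without the naïve female pool the log2FC was 2.01 (adjusted p = 0.00991) at 3 D and 1.79 (adjusted p = 0.0136) at 2 W. Without the naïve male pool it was -1.86 (adjusted p = 0.00315) and -2.08 (adjusted p = 0.000708), so the direction was set by the library left out. Bcl2l11 also passed at 2 W without the naïve female pool (log2FC 2.13, adjusted p = 0.0460), against the lower naïve pool alone.

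The second comparison asks the same of raised intraocular pressure. No member passed in glaucoma retina at 3 D, 2 W or 6 W, where edgeR called 0.00429%, 0% and 0.00858% of genes. DESeq2 called 0 members too, beside 162, 99 and 114 genes. Of the 10 members, 1 at each time had an unadjusted p below 0.05, beside 1418, 1465 and 1321 of 23301 genes, and it was Bcl2 each time. The medians over the members were 0.35, 0.43 and 0.17 at 3 D, 2 W and 6 W, beside -0.0042, 0.012 and 0.007 over all genes tested. At 3 D both pools were above naïve for Bcl2l11 alone (beside 18.2% of genes) and below for Bbc3 and Bcl2 (beside 19.9%). For Bbc3 this held only in CPM, since its 1.46 and 1.52 FPKM lay between the naïve 2.02 and 0.864 FPKM. By 2 W, Bak1, Bcl2, Bid and Mcl1 were above (beside 20.1%) and Bax was below (beside 18.8%). By 6 W, Bak1 and Bcl2 were above (beside 21.2%) and 0 members were below (beside 21.1%).

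Bcl2 was the member with a p below 0.05 in glaucoma retina. From 30.5 and 26.3 CPM in naïve retina it stood at 17.8 and 18.9 CPM at 3 D, at 37.7 and 40.9 CPM at 2 W and at 37.6 and 40.7 CPM at 6 W. The 3 D pools lay below, and the later pools above, both naïve pools. Against naïve the log2FC was -0.63 (SE 0.18, adjusted p = 0.652) at 3 D, 0.47 (SE 0.18) at 2 W and 0.47 (SE 0.18) at 6 W. Between times it was 1.10 (SE 0.18, adjusted p = 0.300) for 2 W minus 3 D and 1.09 (SE 0.18, adjusted p = 0.465) for 6 W minus 3 D in edgeR, where 0.00429% and 0.0129% of genes were called. DESeq2 called both of these differences, with log2FC of 1.08 (adjusted p = 0.000552) and 1.09 (adjusted p = 0.000863), among 111 of 15375 and 89 of 17598 genes. In FPKM the same order was seen, with 3.28 and 3.06 FPKM at 3 D against 6.59 and 6.50 FPKM at 2 W.

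Of the remaining members of glaucoma retina, 0 had an unadjusted p below 0.05 against naïve. Hrk at 3 D was 7.91 CPM in the female pool, the highest of all 12 retina libraries, and 1.26 CPM in the male pool, the lowest, so the pools disagreed (log2FC 1.01, SE 0.78). At 2 W and 6 W Hrk lay between 1.65 and 3.01 CPM. Bid at 3 D was likewise split, at 2.92 and 6.91 CPM. Bcl2l1 lay between 69.4 and 85.6 CPM in all 6 glaucoma libraries, between the values of the naïve pools. Bax was 48.6 and 42.0 CPM at 2 W, below both naïve pools by a log2FC of -0.21 (SE 0.16).

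Markers of RGCs and microglia were summed in the same libraries. In glaucoma retina the 8 RGC markers summed to 242 and 452 CPM at 3 D, 456 and 396 CPM at 2 W and 380 and 446 CPM at 6 W, and 0 of 8 passed the test. The 14 microglia and macrophage markers summed to 93 and 85 CPM in naïve retina, to 124 to 228 CPM after crush and to 117 to 354 CPM in glaucoma. None was at 0 in both pools of a group, and 0 of 14 passed. Their part in the values of the members was not tested. Crush and glaucoma were compared directly at 3 D and 2 W, and 0 members passed in retina, where 0.0081% and 0.113% of genes were called. The largest difference there with a p below 0.05 was that of Bcl2 at 2 W, lower after crush by a log2FC of -0.51 (SE 0.16, adjusted p = 0.470).

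**Figure D2:**
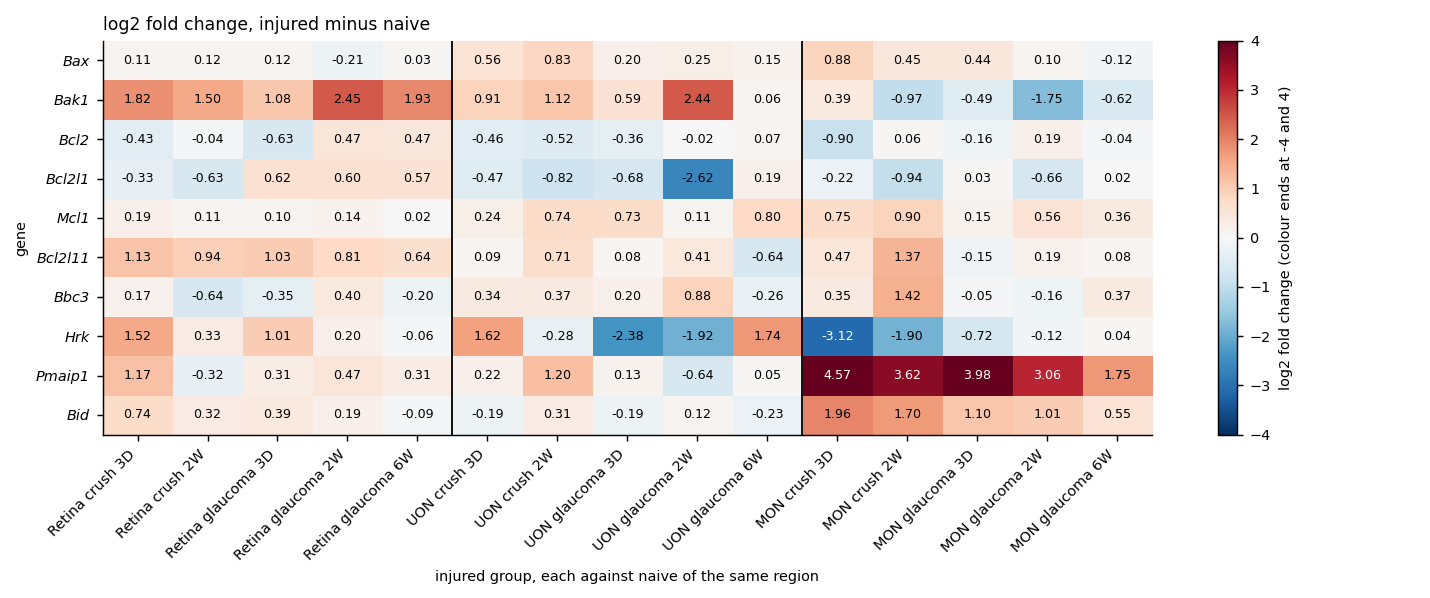
Fitted log2 fold change of each member (rows) in each injured group against naïve of the same region (columns), from edgeR, with red for higher and blue for lower. Pmaip1 and Bid carry positive values in every MON column, from 1.75 to 4.57 and from 0.55 to 1.96, and no cell passed the call limits. Hrk in UON and MON, Bak1 in retina and Pmaip1 in MON rest on pools at or near 0.

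The MON is the myelinated part of the nerve, behind the nerve head. There too edgeR called 0 of 10 members at 3 D and 2 W after crush, although it called 4.26% and 2.72% of all genes. An unadjusted p below 0.05 was reached by 4 and 5 members, beside 4195 and 3204 of the 19988 genes tested. DESeq2 gave 3 calls in 20 member tests over both times, namely Bid at 3 D and 2 W and Bcl2l11 at 2 W. Over all genes it called 2368 of 19774 at 3 D and 1693 of 20513 at 2 W. The pools of 4 members stood above both naïve pools at 3 D (Bax, Bcl2l11, Bid and Pmaip1, beside 23.8% of genes) and those of 3 below (Bcl2, Bcl2l1 and Hrk, beside 26.3%). At 2 W, 5 members were above (Bax, Bbc3, Bcl2l11, Bid and Pmaip1, beside 22.7%) and 3 below (Bak1, Bcl2l1 and Hrk, beside 22.4%). For Hrk this held only in CPM, since its 2 W female pool was at 0.205 FPKM, above the naïve female pool at 0.191 FPKM. The medians over the 10 members were 0.43 and 0.68, beside -0.0049 and 0.051 over all genes.

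Bid had the lowest adjusted p of the members in any injured group. It was at 5.63 and 3.66 CPM in naïve MON, at 12.9 and 21.6 CPM at 3 D and at 18.2 and 11.9 CPM at 2 W. All 4 crush pools were above both naïve pools. The log2FC was 1.96 at 3 D (SE 0.46, adjusted p = 0.0604) and 1.70 at 2 W (SE 0.45, adjusted p = 0.102). DESeq2 gave adjusted p = 0.00171 at 3 D and 0.0120 at 2 W. Without the 3 D female pool, or without either 2 W pool, edgeR also called Bid at 3 D, with a log2FC of 1.91 to 2.61, and in the first of these the 3 D group was 1 library.

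Pmaip1, a BH3-only gene that neutralises Mcl1 and is a p53 target, had the largest fold change. It was at 1.17 CPM (86 counts) in the naïve female pool and at 0 in the naïve male pool, at 9.66 and 13.3 CPM at 3 D and at 7.42 and 5.69 CPM at 2 W. The log2FC of 4.57 at 3 D (SE 1.13, adjusted p = 0.0703) and 3.62 at 2 W (SE 1.07, adjusted p = 0.140) depend on how the 0 was treated. Leaving out either 2 W pool or either 3 D pool gave an edgeR call of Pmaip1 at 3 D, with a log2FC of 3.62 to 5.87, and leaving out either naïve pool gave none. Bid and Pmaip1 followed each other over the 12 MON libraries (Pearson r 0.885 of log2 CPM, which share the crush, glaucoma and naïve groups).

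Bcl2l11 stood at 9.15 and 11.3 CPM in naïve MON, at 13.1 and 14.4 CPM at 3 D and at 35.8 and 17.9 CPM at 2 W. The 2 W log2FC was 1.37 (SE 0.40, adjusted p = 0.137), and DESeq2 called it with adjusted p = 0.0400. Bbc3, another p53 target, was 4.98 and 2.19 CPM in naïve MON, 3.79 and 4.37 CPM at 3 D and 11.3 and 7.20 CPM at 2 W (log2FC 1.42, SE 0.50, adjusted p = 0.217). Only the 2 W pools of Bbc3 cleared both naïve pools. Hrk went the other way from the retina, with 1.24 and 2.57 CPM in naïve MON and 0.213 and 0.222 CPM at 3 D (log2FC -3.12, SE 1.38, adjusted p = 0.252). These values are near the detection limit, since estimated counts of Hrk in injured MON went as low as 4.

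Bax was at 55.4 and 60.5 CPM in naïve MON, at 92.0 and 115 CPM at 3 D and at 88.4 and 68.5 CPM at 2 W. Each crush pool was above both naïve pools, with a log2FC of 0.88 at 3 D (SE 0.28, adjusted p = 0.129) and 0.45 at 2 W (SE 0.28, adjusted p = 0.504). Bcl2l1 was at 401 and 374 CPM in naïve MON, at 306 and 340 CPM at 3 D and at 186 and 214 CPM at 2 W (log2FC -0.94 at 2 W, SE 0.29, adjusted p = 0.149). The level of Bax relative to Bcl2l1, as a ratio of FPKM within a library, was 0.344 and 0.391 in naïve MON, 0.782 and 0.863 at 3 D and 1.21 and 0.795 at 2 W. The crush ratios of MON lay above both naïve ratios. In glaucoma MON the ratio was 0.477 to 0.703 at 3 D and 2 W, also above, and 0.338 and 0.339 at 6 W, below both. In retina the crush ratios of 1.57 to 4.80 lay within the naïve values of 1.48 and 4.89. In UON the naïve ratios were 0.580 and 0.513, the crush ratios were 0.863 to 2.86, and the glaucoma ratios ran from 0.507 to 4.12. Bcl2 was at 65.5 and 55.7 CPM in naïve MON, at 38.4 and 25.2 CPM at 3 D and at 54.6 and 68.8 CPM at 2 W (log2FC -0.90 at 3 D, SE 0.31, adjusted p = 0.152). Mcl1 could not be placed, since its naïve pools were at 10.8 and 84.7 CPM and its crush pools between 53.7 and 65.8 CPM. Mcl1 was called at 3 D without the naïve male pool, against the lower naïve pool alone (log2FC 2.38, adjusted p = 0.0462), and without the 2 W female pool (log2FC 1.01, adjusted p = 0.0369).

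**Figure D3:**
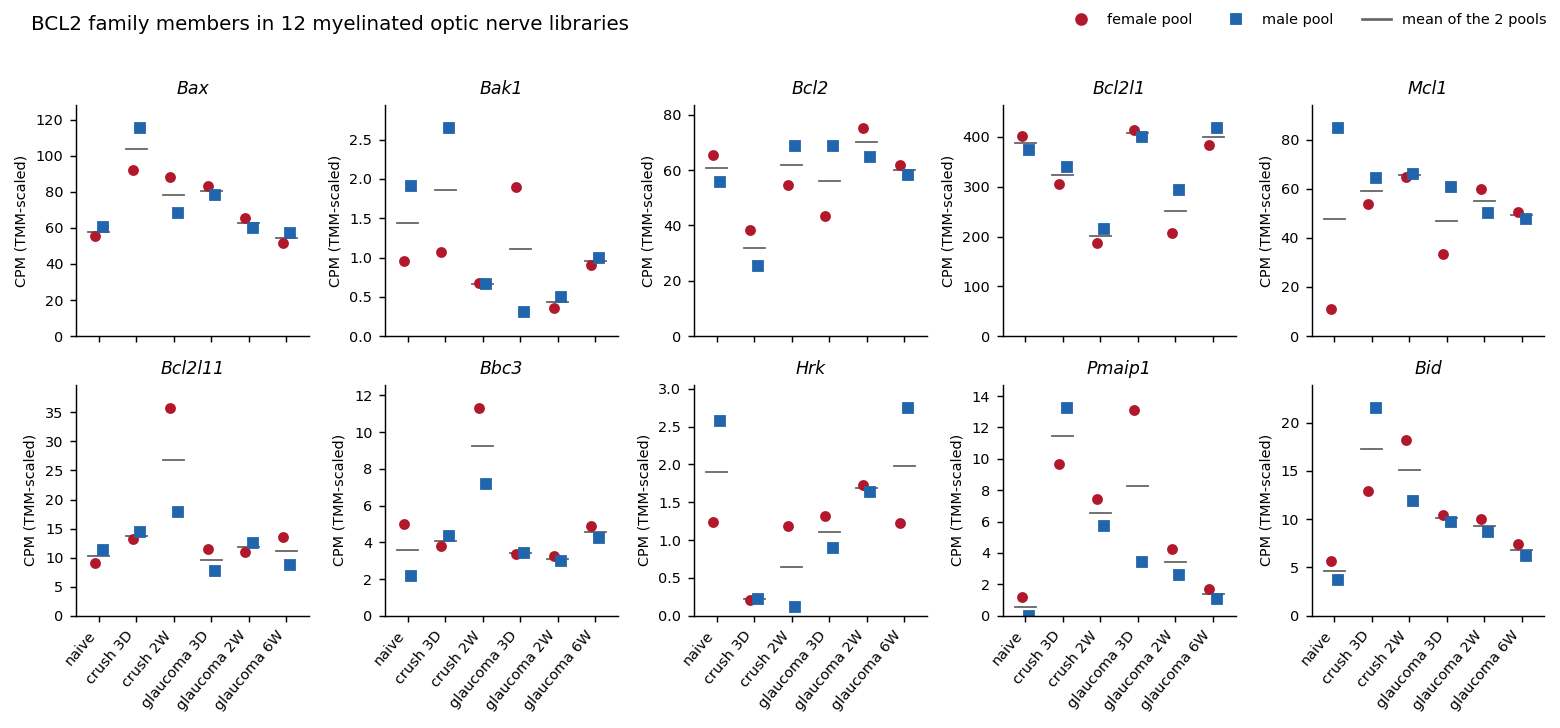
Level of each member in the 12 MON libraries, in TMM-scaled CPM on linear axes that start at 0, with circles for female pools, squares for male pools and a bar at the mean of both. Bid and Pmaip1 were above both naïve pools in all 4 crush libraries, and Bcl2l1 was lowest at 2 W after crush, at 186 and 214 CPM.

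Markers of other cell types differed strongly in the same libraries. The 14 microglia and macrophage markers summed to 1961 and 2260 CPM in naïve MON, to 8121 and 12648 CPM at 3 D and to 17301 and 7699 CPM at 2 W, and 4 and 7 of 14 rose. The 11 myelin markers summed to 81387 and 67008 CPM at 3 D and to 43086 and 54591 CPM at 2 W, and 0 and 2 of 11 fell. Of 10 proliferation markers, 9 rose at 3 D and 5 at 2 W. None of the microglia, macrophage or myelin markers was at 0 in both pools of a group. The part of these cells in the values of Bid, Pmaip1, Bax and Bcl2l1 was not tested.

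In glaucoma MON edgeR called 0 members, and 0% of genes, at 3 D, 2 W and 6 W, with 2, 3 and 0 members at an unadjusted p below 0.05. Over all genes, 1854, 2017 and 1127 had such a p. DESeq2 called 434, 493 and 65 genes, and among them Pmaip1 at 3 D (log2FC 4.03, adjusted p = 0.000708) and 2 W (log2FC 3.09, adjusted p = 0.0209). Pmaip1 was at 13.1 and 3.42 CPM at 3 D, at 4.26 and 2.59 CPM at 2 W and at 1.68 and 1.07 CPM at 6 W, where it overlapped the naïve female pool. Bid was above both naïve pools at every time, with 10.4 and 9.73 CPM at 3 D, 10.04 and 8.64 CPM at 2 W and 7.45 and 6.23 CPM at 6 W. Its log2FC was 1.10 (SE 0.33, adjusted p = 0.479), 1.01 (SE 0.33, adjusted p = 0.460) and 0.55 (SE 0.33, adjusted p = 0.849). Bcl2l1 was at 208 and 294 CPM at 2 W, below both naïve pools (log2FC -0.66, SE 0.23, adjusted p = 0.489). Besides Bid, Bax and Pmaip1 were above naïve at 3 D (beside 18.8% of genes), and Pmaip1 at 2 W (beside 20.1%), where Bak1 and Bcl2l1 were below (beside 19.1%). At 6 W Bid was the only member above (beside 19.5%). None was below at 3 D (beside 16.9%) or at 6 W (beside 20%). The microglia and macrophage markers summed to 5749 and 4267 CPM at 3 D, 5883 and 3856 CPM at 2 W and 3288 and 2868 CPM at 6 W in the same MON libraries, above both naïve pools each time, though 0 of 14 passed, and their part in the values of Bid and Pmaip1 was not tested. Over the 9 contrasts of a later with an earlier time in the 3 tissues, edgeR called 0 of 90 member tests, with 9 at an unadjusted p below 0.05. Over all genes, 1018 to 2493 a contrast had such a p. After crush the contrast of 2 W with 3 D called 0.00468% of genes in UON and 0.075% in MON.

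Between models at 2 W, Bbc3 in MON was higher after crush than in glaucoma by a log2FC of 1.54 (SE 0.45, adjusted p = 0.414 in edgeR, 0.0314 in DESeq2), with 11.3 and 7.20 CPM against 3.25 and 2.96 CPM. Bcl2l11 was 35.8 and 17.9 CPM against 10.97 and 12.6 CPM (log2FC 1.13, SE 0.36, adjusted p = 0.463). Neither pair of groups overlapped, but the share of all genes that did not overlap between the models was not counted. Among all genes edgeR called 0.0485% in that contrast and 0.0162% at 3 D, and DESeq2 called 371 of 19990 at 2 W.

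The authors describe the cells of the UON, at the nerve head, as mostly astrocytes. In naïve UON the 8 astrocyte markers summed to 16676 and 20462 CPM and the myelin markers to 27004 and 20447 CPM. No member passed after crush at 3 D or 2 W, where 0% and 0.0281% of genes were called, or in glaucoma, where 0% were called at 3 D, 2 W and 6 W. Members with an unadjusted p below 0.05 numbered 0 and 3 after crush and 1, 1 and 1 in glaucoma. Genes with such a p numbered 657 and 1980 of 21368 after crush and 868, 801 and 451 of 22438 in glaucoma. DESeq2 called 210 and 501 genes after crush and 129, 69 and 31 in glaucoma. Bax was above both naïve pools in all 5 injured groups, from naïve values of 53.7 and 49.9 CPM to 59.4 and 100 CPM at 3 D and 78.9 and 114 CPM at 2 W after crush. At 6 W of glaucoma this held only in CPM (54.0 CPM in the female pool), since in FPKM that pool was at 48.6, below the naïve female pool at 49.6. Its log2FC in UON was 0.15 to 0.83, with SEs of 0.25 to 0.33.

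Bcl2l1 had the lowest UON values in glaucoma at 2 W. It was at 236 and 242 CPM in naïve UON, at 245 and 72.1 CPM at 3 D, at 42.8 and 35.6 CPM at 2 W and at 214 and 319 CPM at 6 W. The 2 W pools were the lowest of the 12 UON libraries (log2FC -2.62, SE 0.52, adjusted p = 1). DESeq2 called it (adjusted p = 0.000613), as did edgeR without the 3 D female pool (log2FC -2.60, adjusted p = 0.0491). The 2 W male library was also the shallowest of the series, with 16158723 counts. After crush Bcl2l1 was at 172 and 175 CPM at 3 D and at 172 and 108 CPM at 2 W, also below both naïve pools, and at 2 W it was higher than in glaucoma by a log2FC of 1.81 (SE 0.47, adjusted p = 0.368 in edgeR, 0.0271 in DESeq2). The 2 W minus 3 D difference in glaucoma was -1.94 (SE 0.51, adjusted p = 0.860 in edgeR, 0.0204 in DESeq2) where edgeR called 0% of genes, 1073 had an unadjusted p below 0.05 and DESeq2 called 218. Without the 3 D male pool edgeR called Bcl2l1 at -2.69 (adjusted p = 0.0246). Crush and glaucoma contrasts in UON called 0% of genes at 3 D, with 255 at an unadjusted p below 0.05 and 12 by DESeq2. At 2 W edgeR called 0.0418%, and DESeq2 518 of 21990 genes.

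Members whose UON pools were clear of naïve were counted as in the other tissues. Both pools were above naïve for 1 member (Bax) at 3 D after crush, beside 17.9% of genes, and for 3 (Bax, Mcl1 and Pmaip1) at 2 W, beside 19.1%. Bcl2l1 was the only member below at both times, beside 17% and 22.9%. In glaucoma Bax and Mcl1 were above at 3 D (beside 16.7%) and 6 W (beside 14.5%), and Bax and Bbc3 at 2 W (beside 16.4%). Below were Bcl2 at 3 D (beside 16.8%), Bcl2l1 and Pmaip1 at 2 W (beside 18.2%) and Bcl2l11 at 6 W (beside 15.5%). For Pmaip1 and Bcl2l11 this held only in CPM. Their female pools were at 0.771 and 2.01 FPKM, above the naïve female pools at 0.766 and 1.61 FPKM. Mcl1 was at 72.8 and 92.4 CPM in naïve UON, at 127 and 143 CPM at 3 D of glaucoma and at 119 and 171 CPM at 6 W (log2FC 0.73, SE 0.24, and 0.80, SE 0.25). The myelin markers of UON summed to 27004 and 20447 CPM in naïve pools and to 9384 and 15685 CPM at 2 W of glaucoma. At 2 W after crush they summed to 23751 and 3376 CPM. Over the 12 libraries they ran from 3376 to 41938 CPM, with no marker at 0 in both pools of a group. Microglia and macrophage markers of UON summed to 1706 and 1459 CPM in naïve pools, to 1894 and 4903 CPM at 3 D and 5247 and 7268 CPM at 2 W after crush, and to 1572 to 2761 CPM in glaucoma. Proliferation markers summed to 90.5 and 76.4 CPM in naïve UON, to 654 and 404 CPM at 3 D after crush and to 278 and 274 CPM at 3 D of glaucoma. By edgeR 0 genes of these 3 lists passed in UON, and their part in the values of Bax, Mcl1, Pmaip1 and Bcl2l1 was not tested.

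The regions were also compared before injury. Here 3 of 10 members were called for UON against retina, beside 31.7% of all genes, and 2 of 10 for MON against retina, beside 27.6%. Bcl2 was at 9.85 and 11.3 FPKM in naïve UON and at 8.47 and 8.06 FPKM in naïve MON, against 4.67 and 4.00 FPKM in naïve retina. The log2FC was 1.93 for UON against retina (SE 0.24, adjusted p = 0.000737). For MON against retina it was 1.58 (SE 0.23, adjusted p = 0.00204). In FPKM the mean of Bcl2 was 8.27 in naïve MON and 4.34 in naïve retina, short of the fold limit. The fold changes between regions are of TMM-scaled counts and are larger than the FPKM values beside them give. This holds for Bcl2, Bcl2l1, Bid, Mcl1 and Bax. Bcl2l1 was at 85.4 and 84.1 FPKM in UON and at 140 and 137 FPKM in MON, against 31.4 and 8.80 FPKM in retina. Its log2FC was 2.73 for UON (SE 0.55, adjusted p = 0.00754) and 3.50 for MON (SE 0.56, adjusted p = 0.00308). With the naïve male retina left out these were 1.80 and 2.58, and both remained called.

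Bid was at 5.22 and 2.73 FPKM in naïve UON against 1.56 and 1.41 FPKM in retina (log2FC 1.74, SE 0.46, adjusted p = 0.0238). Bid was not called without the UON female pool (adjusted p = 0.149) or without the retina female pool (adjusted p = 0.203). Mcl1 was at 18.5 and 22.5 FPKM in UON against 6.90 and 7.75 FPKM in retina and just missed the limit (log2FC 1.84, SE 0.63, adjusted p = 0.0584). It passed without either MON pool, without the retina female pool or without the UON male pool, with a log2FC of 1.91 to 2.75. Bax differed little by region, at 49.6 and 43.2 FPKM in UON and at 48.0 and 53.4 FPKM in MON, and MON exceeded retina by a log2FC of 0.62 (SE 0.20, adjusted p = 0.0531). No member passed for UON against MON, where 9.63% of genes were called, and 0 members had an unadjusted p below 0.05, beside 5831 of 23685 genes. In UON and MON, Bcl2l1 was the highest of the 10 genes and Bax the next, the reverse of retina. The order of the tissues was the same in FPKM and in TPM for all 10 members.

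**Figure D4:**
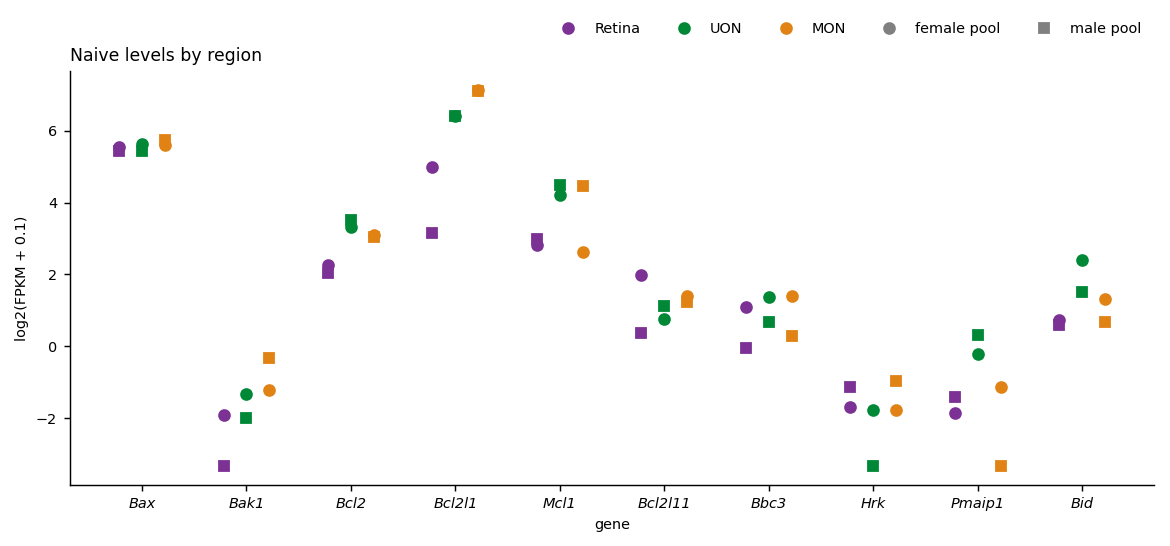
Level of each member in the 2 naïve pools of each region, as log2 of FPKM plus 0.1, with circles for female and squares for male pools. Bcl2l1 was at 84.1 to 140 FPKM in UON and MON against 8.80 and 31.4 FPKM in retina, and points at the foot of the plot (Bak1, Hrk and Pmaip1, 1 male pool each) are at 0 FPKM.

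The deposited transcript counts of Bcl2l1 were examined by start site. Transcript Bcl2l1-202 made up 89.2% and 94.0% of the estimated counts of Bcl2l1-201 and Bcl2l1-202 together in naïve MON, 89.8% and 96.8% in naïve UON, and 43.2% and 36.5% in naïve retina. Over 12 libraries a tissue, its share was 35.0% to 98.7% in MON (median 93.2%), 24.1% to 99.1% in UON (median 82.3%) and 23.9% to 75.4% in retina (median 46.9%). The second promoter shown above lies beside the main transcript start of the nerve, while in retina neither transcript prevailed in every library. These counts are estimates by transcript assembly from reads that both transcripts largely share.

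The same transcripts set some libraries apart. The other 7 annotated Bcl2l1 transcripts took 16.5% to 40.3% of the counts in 8 libraries and 2.14% to 6.66% in the remaining 28. The 8 were the naïve male and both female crush libraries of retina, the glaucoma 3 D male and both glaucoma 2 W libraries of UON, and both glaucoma 2 W libraries of MON. In retina these were the 3 libraries in which Bcl2l1 lay at 8.80 to 10.9 FPKM rather than at 24.3 to 32.8 FPKM. In UON they were the lowest 3 by FPKM, at 32.3, 25.5 and 16.5 FPKM. In MON they were at 94.8 and 119 FPKM, above the 2 W crush libraries at 75.5 and 84.1 FPKM. The part of this shift in the Bcl2l1 comparisons was not tested, and it touches the naïve retina group, with which every injured retina group was compared.

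**Figure D5:**
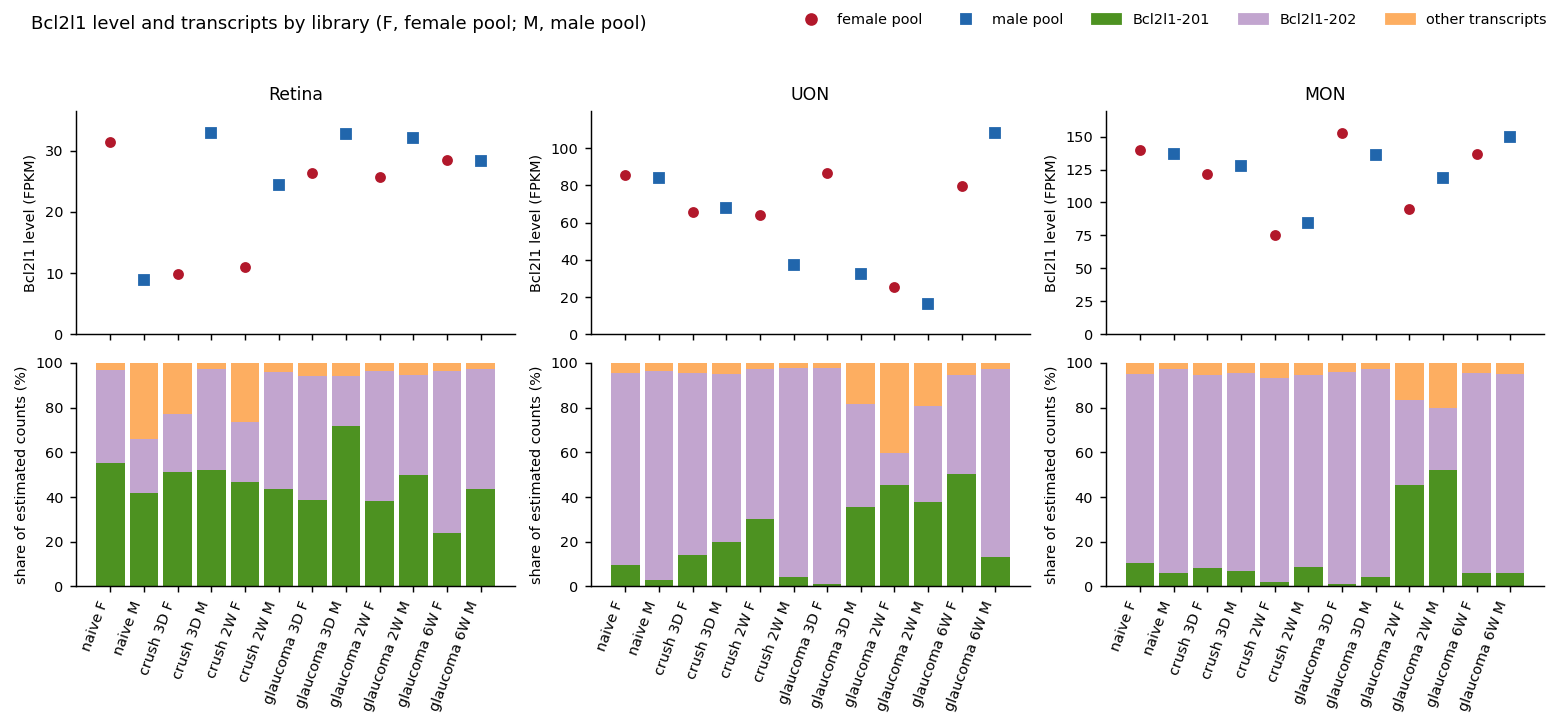
Bcl2l1 level in FPKM (top row) and the percent of its estimated transcript counts on Bcl2l1-201, Bcl2l1-202 and the other annotated transcripts (bottom row) in each of the 36 libraries, by region. In the nerve Bcl2l1-202 prevails outside the glaucoma 2 W groups and some other UON libraries, and 8 libraries show 16.5% to 40.3% of counts on other transcripts.

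Whether a response differs between tissues was tested by the interaction of tissue and group for each pair of tissues and each of the 5 injured groups. Of 150 such tests 0 passed, and 15 had an unadjusted p below 0.05. The MON against retina contrasts called 0.882% of genes at 3 D and 0.622% at 2 W after crush, those of UON against retina 0.0115% and 0.0689%, those of MON against UON 0.012% and 0%, and all 9 in glaucoma 0%. Over the 15 contrasts 799 to 3757 genes had such a p, and DESeq2 called 27 to 1501 genes. The most DESeq2 calls, 1501 of 19943 genes, were in MON against retina at 3 D after crush. The lowest adjusted p was that of Hrk at 3 D after crush, whose response was lower in MON than in retina by a log2FC of -4.58 (SE 1.34, adjusted p = 0.146 in edgeR, 0.0121 in DESeq2). The values behind it are the 4.62 and 5.61 CPM of crushed retina against 1.35 and 2.29 CPM of naïve retina. In MON they are 0.213 and 0.222 CPM after crush against 1.24 and 2.57 CPM in the naïve pools. Estimated counts of Hrk in injured MON went as low as 4. The response of Bcl2l1 to glaucoma at 2 W was lower in UON than in retina by -3.21 (SE 0.84, adjusted p = 0.979) and higher in MON than in UON by 2.04 (SE 0.60, adjusted p = 0.772). The first of these Bcl2l1 differences rests on naïve retina pools at 91.2 and 20.5 CPM. The UON and MON libraries at 2 W of glaucoma are all among the 8 with a large share of other Bcl2l1 transcripts. A block for the pool of mice changed none of the calls between tissues.

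The wider death pathway was described with lists of 17 apoptosome and caspase genes, 11 death receptor and necroptosis genes, 15 other BCL2 family genes, 15 inducers of BH3-only genes and 13 further p53 targets. In retina and in UON, 0 genes of these lists passed in any injured group. After crush of MON at 3 D edgeR called 4.26% of all genes. In the lists, 2 of 17 apoptosome and caspase genes, 2 of 10 tested death receptor genes and 3 of 13 tested other family genes rose. So did 4 of 14 tested inducers and 2 of 13 p53 targets, and 0 genes of the lists fell. DESeq2 called 3, 4, 5, 4 and 3 genes of the lists higher there, in the same order, beside 2368 of 19774 genes in either direction. It also called 3 genes lower, named after their values were seen. These were the inducers Foxo1 (log2FC -1.24) and Foxo3 (-1.18) and the protective family gene Bcl2l2 (-1.37). Medians of these lists were 0.85, 1.26, 0.50, -0.14 and 0.75. At 2 W edgeR called 2.72% of all genes. In the lists 0, 1, 3, 2 and 0 genes rose, and 1 fell, Bcl2l2 (log2FC -1.72, SE 0.30, adjusted p = 0.0359). Among 10 housekeeping genes 2 also rose at 3 D, with a list median of 0.66.

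Of the named genes, Birc5, an inhibitor of apoptosis protein that also serves in mitosis, rose by a log2FC of 4.94 at 3 D (SE 0.76, adjusted p = 0.0180). Casp8, the initiator caspase that cleaves Bid, rose by 2.38 (SE 0.41, adjusted p = 0.0244), and Mlkl, the executor of necroptosis, by 4.39 (SE 0.80, adjusted p = 0.0287). Tnfrsf1b, a receptor of tumour necrosis factor, rose by 2.60 at 3 D and 2.52 at 2 W. The protective family genes Bcl2a1d and Bcl2a1b, expressed in leukocytes and near-identical in sequence, rose by 3.70 and 3.49 at 3 D and by 3.89 and 3.55 at 2 W, and reads may be split between them. Among inducers, E2f1 (3.06) and Egr1 (2.48) led at 3 D and Egr1 (2.65) and Atf3 (2.47) at 2 W. The p53 targets Plk2 (2.42) and Gadd45a (1.34) rose at 3 D.

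Genes that followed each member most closely were sought over the 12 retina libraries among genes with a mean of at least 1 CPM. Mitochondrial genes and those named by Gm numbers, Rik clones, pseudogene numbers or accession-like codes were left out. The values are Pearson correlations of log2 CPM, given as a description over libraries that share their groups. Hrk was nearest to Pter (r 0.900), Sox11 (r 0.891) and Zc3hav1 (r 0.884), and Mcl1 to Zfp994 (r 0.914), Hrk (r 0.879) and Xpnpep3 (r 0.819). Bcl2 was nearest to Ptpn23 (r 0.948), Bcr (r 0.933) and Ssc5d (r 0.920), and Bcl2l1 to Cdr1os (r 0.934), Fkbp4 (r 0.911) and Notch3 (r 0.881). Bax followed Gabrr2 (r 0.979), Bloc1s1 (r 0.941) and Chchd5 (r 0.939). Bak1 followed Fam228a (r 0.912), Kctd9 (r 0.902) and Cds2 (r 0.894), at a mean of 0.590 CPM. Bcl2l11 was nearest to Pfkfb2 (r 0.906), Arf1 (r 0.899) and Ankrd33b (r 0.887), Bbc3 to Cntnap4 (r 0.867), Slc29a3 (r 0.845) and Scarf2 (r 0.828), Pmaip1 to Fam219a (r 0.862), H4c14 (r 0.858) and Ccnl2 (r 0.832), and Bid to Dcaf4 (r 0.884), Nhlrc3 (r 0.868) and Cbwd1 (r 0.865).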

How the data were processed

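RNA-seq libraries were prepared by the authors with an ultra-low input kit from pooled RNA and aligned to GRCm38 with HISAT2 2.2.1. Genes and transcripts were quantified with StringTie 1.3.0, and the authors deposited estimated counts (whole numbers, not normalized, so that a read pair may weigh more than 1 count), FPKM and TPM values. A few FPKM and TPM values just below 0, other quantities of the deposited StringTie tables, were set to 0. Here the deposited count table was tested with edgeR 4.0.16 (R 4.3.3): TMM scaling, a filter on low counts (minimum count 10, minimum total 15), a quasi-likelihood F test with a term for sex, and Benjamini-Hochberg adjustment over all genes. Calls needed both an absolute log2FC above 1 and an adjusted p below 0.05. CPM is the count scaled to the TMM-adjusted library total. Levels are compared between genes only in FPKM, and every fold change is of counts. The p-values measure the spread between pools, at 2 pools a group, that is left after a sex difference shared by the groups of a fit. A sex difference particular to 1 group counts as spread.

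The 10 members and the gene lists were chosen with earlier results of these data known. Named genes were all members, and, for each list, the 2 called genes with the largest change. Genes nearest to a member were the 3 highest Pearson correlations of log2 CPM (prior count 2) in retina, without mitochondrial genes, numbered Gm genes, Rik clones, numbered pseudogenes and accession-like names. Alternatives were DESeq2 1.42.0, its size factors in edgeR, no filter, no sex term, 1 fit of all 36 libraries, no fold limit and leaving out each library. Retina, UON and MON of a pool came from the same mice, and their deviations correlated between -0.354 and 0.305 (18 correlations, 4 over 0.1), so a block for the pool was added after seeing the data. The scripts were tested on simulated data. Promoter sequences are from RefSeq (GRCm38.p6). Strand in counting is not given in the sources used here.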

Additional observations from a re-analysis of the deposited data

How the results depend on the processing

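Depth and 2 pools a group limit these results: an edgeR count of 0 beside 99 to 349 (retina), 31 to 501 (UON) or 65 to 2368 (MON) genes called by DESeq2 in the injured groups, where edgeR called 0 to 71, 0 to 6 and 0 to 852, does not show that a member did not differ.

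In MON after crush, the 0 member calls became 3 with DESeq2, 5 with no filter, 1 without the sex term (no replicate block), 3 in 1 fit of all libraries and 0 to 5 when a library was left out. DESeq2 gave 2 in MON glaucoma, 1 in UON glaucoma, 2 between crush and glaucoma, 4 between tissues, 3 between times and 6 between naïve tissues. With no filter there was 1 call between crush and glaucoma, 2 between tissues and 7 between naïve tissues, and 1 fit of all libraries gave 7 of the last, against 5. Leaving out a library gave 0 to 3 in retina after crush, 0 to 1 in UON glaucoma, 0 to 2 between tissues, 0 to 1 between times and 6 to 8 between naïve tissues. The replicate block for the pool of mice, run for the responses between tissues alone, gave 0 calls. Bcl2l1 in retina after crush reversed to 2.01 at 3 D and 1.79 at 2 W without the naïve female pool, against -1.86 and -2.08 without the naïve male pool. The cause was not tested. Between tissues, DESeq2 called Hrk, Pmaip1 and Bcl2l1, edgeR with no filter Hrk and Pmaip1, and edgeR with a MON pool left out Hrk, Mcl1 and Pmaip1.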

Other observations

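Genes around the family were called by DESeq2 in retina, UON and glaucoma MON where edgeR called none, and they are named here after their values were seen. In retina 3 D after crush these were Atf3 (log2FC 2.10) and Egr1 (1.29), stress-induced transcription factors, Cdkn1a (2.00), a p53 target that halts the cell cycle, and Bmf (-1.63), another BH3-only gene. Their adjusted p in edgeR was above 0.05, with the lowest at 0.0574 for Cdkn1a. In retina 3 D after microbead injection Atf3 (1.56), Cdkn1a (1.37) and the receptor Tnfrsf1a (1.43) were called. Atf3 was also called at 2 W after crush (1.07), and Casp2, an initiator caspase, at 6 W in glaucoma (-1.54). In UON 3 D after crush Birc5 (4.10), Egr1 (1.86) and Eda2r (2.61) were called, and at 2 W Egr1 (2.15), Bcl2a1b (2.37), Bcl2a1d (2.53), Gadd45a (1.54) and Casp2 (-2.53). In MON 3 D after microbead injection Casp8 (1.46), Tnfrsf1b (1.296), Atf3 (1.06), Egr1 (2.04), Foxo3 (-1.14), Bcl2a1b (1.90), Bok (1.23) and Plk2 (1.47) were called. At 2 W in MON these were Birc3 (1.10), Casp8 (1.152), Fas (1.19), Tnfrsf1b (1.20), Atf3 (1.77), Egr1 (1.62), Bcl2l2 (-1.39) and Plk2 (1.19), and also Fasl, whose fold is not given because it rests on few counts.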
